A study of Mus musculus with 4 samples.

Results

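The 10 genes described here encode surface and cytoskeletal proteins by which muscle satellite cells (SCs) are recognised: Megf10, Megf11, Cdh15, Vcam1, Ncam1, Sdc3, Sdc4, Cxcr4, Calcr and Des. They were the 10 of 55573 genes in the deposited table that bore these symbols. The choice was by name, with earlier results of these data known. In the ribosome profiling (Ribo-seq) libraries labelled KO, Des, the muscle intermediate filament protein, was at a mean of 17.6 RPKM against 43.0 in WT, and Megf11 was at 1.14 against 11.6. Vcam1 was at 16.5 RPKM against 8.57. Sdc4, at the highest RPKM of the set in every library, and Cxcr4 showed no separation between the groups. No difference of a member passed an adjusted p of 0.05 in the limma test with 2 libraries per group.

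Ribo-seq sequences the mRNA fragments that ribosomes cover, and RPKM gives the number of such fragments per kilobase of gene, scaled to a common library size. The study compared primary myoblasts, the cultured descendants of SCs, of WT and SC-specific eIF5A-KO mice, to ask which mRNAs need the translation factor eIF5A. Both groups were sampled at Day 2 of proliferation in medium with serum and FGF, and both were treated with cycloheximide before lysis. The 4 libraries were WT replicates 1 and 2 and KO replicates 1 and 2.

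The study describes KO mice as eIF5A f/f with Pax7 CreERT2/+, induced with tamoxifen, and the floxed line as on a C57BL/6j background. It gives the Ribo-seq cells as taken from 3-week-old littermates. The WT controls are Pax7 CreERT2/+ in its main text and carry floxed eIF5A without Cre in a legend, so whether the controls carried CreERT2 was not settled by the sources used here. The Cre is driven by Pax7, so deletion is limited to Pax7-expressing cells and their descendants, and other cells of a muscle culture keep the gene. Nothing in the labels says whether the 2 libraries of a group came from separate animals or cultures, so p-values measure the spread between these libraries, which may be technical.

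SCs lie between the muscle fibre and its basal lamina, and their surface proteins hold them there and carry signals from the niche. Cadherins and immunoglobulin-type adhesion proteins bind neighbouring cells, syndecans carry heparan sulphate chains that present growth factors, and the chemokine receptor Cxcr4 and the calcitonin receptor Calcr are coupled to G proteins. Desmin appears as SCs become myoblasts and persists in muscle fibres. Several of the members are also made by other cells of muscle, such as endothelial cells (Vcam1, Cxcr4) and mural cells (Des). In bulk footprint libraries, fewer cells of a type, less RNA per cell and fewer ribosomes per mRNA cannot be told apart. No RNA levels were used here.

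Recovered depth was 642429 to 704006 gene-assigned reads per library, of which protein-coding genes took 41.5% and 33.9% in WT replicates 1 and 2 and 65.4% and 59.2% in KO replicates 1 and 2. Eif5a, the targeted gene, was at 34.9 and 65.2 RPKM in WT and at 60.3 and 59.4 RPKM in KO (50, 73, 130 and 114 reads). It was thus not lower in the libraries labelled KO (log2 difference 0.32 ± 0.48 SE, limma adjusted p = 0.839, 95% interval -0.87 to 1.51). The paper reports the knockout by RT-qPCR and immunostaining of SCs and by a western blot, which are not measures of these libraries. Every direction below is between libraries as labelled. Pax7, the defining SC transcription factor, gave 30 reads in WT replicate 1, 10 in WT replicate 2, 5 in KO replicate 1 and 7 in KO replicate 2, so its footprints were present in each library.

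The members drew 527 reads in WT replicate 1, 489 in WT replicate 2, 675 in KO replicate 1 and 567 in KO replicate 2. As a share of protein-coding reads this was 0.196% (95% Wilson interval 0.180 to 0.213) and 0.225% (0.206 to 0.245) in WT, and 0.147% (0.136 to 0.158) and 0.147% (0.136 to 0.160) in KO. Both KO shares lay below both WT shares, and the two-sided exact permutation test gave p = 0.333, the smallest that 2 against 2 libraries allow. The direction turned with the denominator, as the members took 0.0813% and 0.0761% of all gene-assigned reads in WT and 0.0959% and 0.0872% in KO, with both KO shares above both WT shares.

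**Figure D1:**
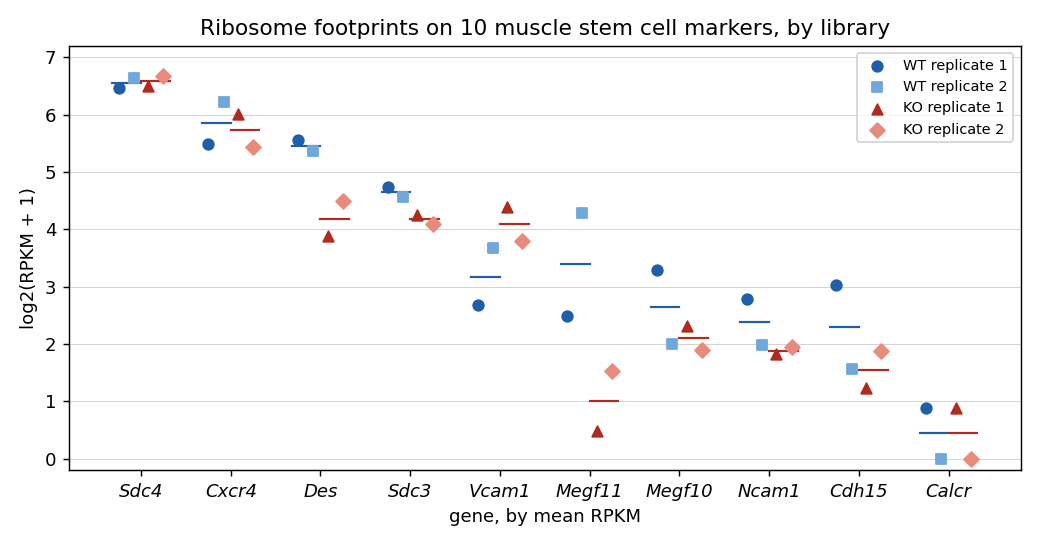
Level of each of the 10 members in each of the 4 libraries, as log2(RPKM + 1); circles and squares are WT replicates 1 and 2, triangles and diamonds are KO replicates 1 and 2, and lines are group means. Sdc4 is highest in every library. Des, Megf11, Sdc3 and Ncam1 have both KO points below both WT points, Vcam1 has both above, and Calcr has 0 to 3 reads.

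Levels per kilobase spanned a wide range. By mean RPKM over the 4 libraries the order was Sdc4 (94.0), Cxcr4 (56.0), Des (30.3), Sdc3 (20.7), Vcam1 (12.5), Megf11 (6.37), Megf10 (4.64), Ncam1 (3.57), Cdh15 (3.28) and Calcr (0.423). Sdc4 stood clear of Cxcr4, since its lowest library was above the highest library of Cxcr4, and Cdh15 stood clear of Calcr. All other neighbours in this order overlapped in their library ranges. RPKM divides by the whole gene length, and coding sequence made up 22.1% (Sdc3) to 72.3% (Cdh15) of it. Per kilobase of coding sequence the first 3 genes were Sdc4 (403), Cxcr4 (94.0) and Sdc3 (93.3), followed by Des (80.9). Cxcr4, Sdc3 and Des overlapped on this scale too.

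Of the 10 members, 9 reached the mean RPKM of 1 required for the test, and Calcr did not. None of the 9 passed an adjusted p of 0.05 in limma (range of adjusted p 0.650 to 0.985), where 0.106% of all 11363 genes tested did, and the lowest adjusted p of any protein-coding gene was 0.113. At an unadjusted p below 0.05, 2 of 9 members passed, Des and Megf11, against 7.32% of genes tested. Both were over 2-fold lower in KO, a class that held 4.29% of genes tested, and no member was in the class over 2-fold higher, which held 2.67%. In voom on the recovered reads, which weights each value by its depth, Megf11 alone of the members passed an adjusted p of 0.05, against 0.65% of 10930 genes. With no variance model at all, 4 members (Des, Megf11, Sdc3 and Ncam1) had both KO libraries below both WT libraries, against 20.3% of genes tested, and 1 member (Vcam1) had both above, against 20.1%. The median log2 difference of the 9 was -0.50, beside 0.05 for the 9877 protein-coding genes tested.

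**Figure D2:**
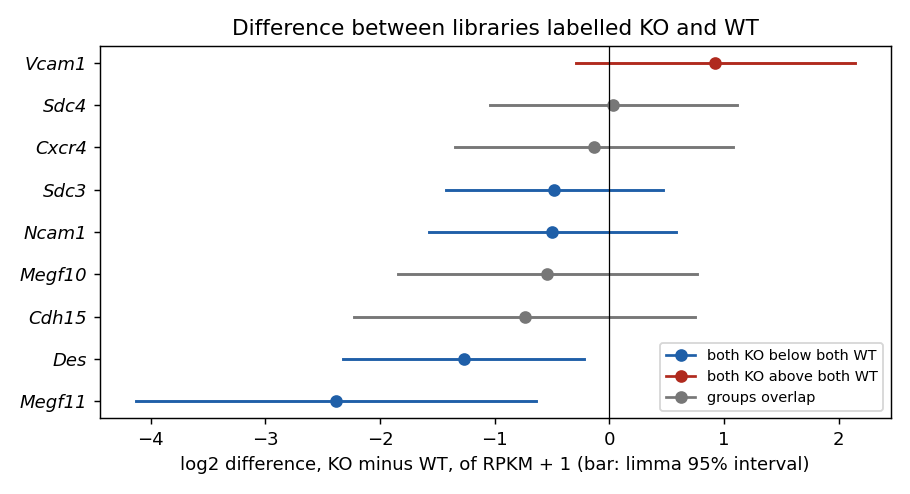
Log2 difference, KO minus WT, of RPKM + 1 for the 9 members tested; dots are limma estimates and bars their 95% intervals from 2 libraries per group. The intervals of Des and Megf11 lie below 0 and those of the other 7 genes cross it.

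The cytoskeletal member, Des (ENSMUSG00000026208, GRCm38 chr1:75360329-75368579, plus strand), encodes desmin, which ties the contractile apparatus of muscle to the nucleus and membrane. It was at 46.0 and 40.1 RPKM in WT replicates 1 and 2 (104 and 71 reads) and at 13.8 and 21.4 RPKM in KO replicates 1 and 2 (47 and 65 reads). Both KO libraries were below both WT libraries, and the spread within each group was small beside the gap between them. The mean was 43.0 ± 4.11 (SD, n = 2) in WT and 17.6 ± 5.40 in KO, 2.44-fold higher in WT. On the log2 scale Des differed by -1.27 ± 0.43 (SE; 95% limits -2.32 and -0.22; limma adjusted p = 0.665). It stayed between -1.57 and -0.97 whichever library was left out, was -0.96 after the correction for GC content, and was smallest, at -0.68, when scaled to total reads.

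Myod1, the myoblast transcription factor that binds muscle gene promoters, was at 140 and 117 RPKM in WT and at 48.6 and 79.8 RPKM in KO. Both KO values were below both WT values (limma adjusted p = 0.676). The paper reports a lower translation efficiency of Myod in KO cells, with its mRNA unchanged. Myod1 is therefore not a stable reference, and its lower level in KO raises every KO ratio given here. The level of Des as a ratio to that of Myod1 in the same library was 0.328 and 0.342 in WT and 0.284 and 0.269 in KO, a comparison chosen after the values were seen. Both KO ratios were below both WT ratios. For Megf11 the ratio was 0.0329 and 0.158 in WT and 0.00812 and 0.0236 in KO, again with both KO libraries below both WT libraries. For Sdc4 the ratio was 0.624 and 0.837 in WT and 1.84 and 1.27 in KO, and both KO ratios were above WT for Sdc3 too (0.184 and 0.193 in WT, 0.371 and 0.202 in KO). In RPKM, Sdc4 overlapped between the groups and Sdc3 was lower in KO, so a ratio above WT is not by itself a higher level. The ratios of Ncam1 overlapped between the groups (0.0424 and 0.0250 in WT, 0.0524 and 0.0358 in KO). So did those of Cxcr4 (0.315 and 0.630 in WT, 1.31 and 0.532 in KO), Megf10, Cdh15 and Calcr. The share of all genes whose ratio to Myod1 separates the groups was not computed. For Vcam1 the ratio was 0.0388 and 0.0998 in WT and 0.412 and 0.163 in KO.

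E-boxes, the letters CANNTG, are what MyoD-family factors recognise, and promoter windows of RefSeq (GRCm38.p6) were available for Des, Cdh15, Sdc3, Sdc4, Cxcr4 and Calcr. Each window ends at a RefSeq transcript start, which need not be the gene start of the deposited table, and the windows of Cdh15 and Sdc4 and 1 of 2 for Calcr lie within the gene as listed there. The 250 bases before the RefSeq start of Des (chr1:75360042-75360291) and of Cdh15 (chr8:122848124-122848373, plus strand) are shown as 2 genes of the myoblast whose windows hold E-boxes, and that of Sdc4 (chr2:164443189-164443438, minus strand) as the member with the highest level. Capitals mark every CANNTG, a pattern that is the same on both strands.
Des: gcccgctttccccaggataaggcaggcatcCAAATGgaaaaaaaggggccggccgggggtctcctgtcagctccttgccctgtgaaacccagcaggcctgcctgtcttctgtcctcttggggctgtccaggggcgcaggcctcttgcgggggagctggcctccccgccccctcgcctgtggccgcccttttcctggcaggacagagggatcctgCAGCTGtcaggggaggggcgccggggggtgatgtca
Cdh15: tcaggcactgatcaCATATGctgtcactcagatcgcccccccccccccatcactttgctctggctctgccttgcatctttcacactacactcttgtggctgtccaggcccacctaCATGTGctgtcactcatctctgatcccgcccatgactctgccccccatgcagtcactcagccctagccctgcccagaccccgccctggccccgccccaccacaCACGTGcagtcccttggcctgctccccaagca
Sdc4: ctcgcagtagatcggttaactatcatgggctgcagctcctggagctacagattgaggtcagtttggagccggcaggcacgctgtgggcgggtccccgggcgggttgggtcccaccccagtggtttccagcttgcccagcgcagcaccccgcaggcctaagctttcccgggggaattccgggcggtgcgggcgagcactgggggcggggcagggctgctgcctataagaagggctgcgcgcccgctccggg
Des held 2 E-boxes in this window, 1 of them CAGCTG, and Cdh15 held 3. Of the other windows, 1 of 2 for Calcr held 1, and those of Sdc3, Sdc4 and Cxcr4 held none. Among 32851 windows of the same length, 66.2% held at least 1 CANNTG, 12.2% at least 3, and 13.0% held CAGCTG, so a match of this kind is common.

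The syndecans, Sdc3 and Sdc4, are transmembrane proteoglycans of SCs that bind fibroblast growth factors. Sdc4 (ENSMUSG00000017009, chr2:164424247-164443887, minus strand) was at 87.3 and 98.3 RPKM in WT and at 89.2 and 101 RPKM in KO (134, 118, 206 and 208 reads). The groups overlapped and the 4 values lay within 1.16-fold of each other, the narrowest range of the set. In limma Sdc4 differed by 0.04 ± 0.44 on the log2 scale, and its 95% limits of -1.04 and 1.11 each allow a 2-fold difference. Its flat level rested on the scaling, since scaled to total reads the difference was 0.64 with both KO libraries above WT. Sdc3 (ENSMUSG00000025743, chr4:130792537-130826319, plus strand) was at 25.8 and 22.7 RPKM in WT and at 18.0 and 16.1 RPKM in KO (93, 64, 98 and 78 reads). Both KO values were below both WT values, by a log2 difference of -0.48 ± 0.38 (limma adjusted p = 0.720, 95% interval -1.42 to 0.46).

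Sdc3 has the most GC-rich coding sequence of the members, at 64.1% against a median of 53.2% over genes tested. In this series the log2 difference fell with GC content across 9866 protein-coding genes (Spearman rho -0.36, across genes, which are not independent replicates), with medians of 0.37 in the GC-poorest and -0.48 in the GC-richest decile. With the trend on GC content and coding length removed in each library, the log2 difference of Sdc3 was -0.02 and that of Sdc4 was 0.18. Des, at 59.6% GC, was then at -0.96, Megf11 (58.5%) at -2.04 and Vcam1, the GC-poorest member at 46.9%, at 0.72.

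Of the adhesion proteins, Vcam1 (ENSMUSG00000027962, chr3:116109949-116129688, minus strand), an immunoglobulin-type ligand of integrin alpha4 beta1 and a common marker for sorting SCs, was the only member above WT in both KO libraries. It was at 5.42 and 11.7 RPKM in WT (29 and 49 reads) and at 20.0 and 13.0 RPKM in KO (161 and 93 reads). The groups did not overlap, but WT replicate 2 and KO replicate 2 were close to each other. The mean was 8.57 ± 4.46 (SD, n = 2) in WT and 16.5 ± 4.97 in KO, a ratio of 1.92. The log2 difference was 0.92 ± 0.49 (SE; 95% interval -0.29 to 2.14; limma adjusted p = 0.686), and it was 0.43 without WT replicate 1.

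Cdh15 (ENSMUSG00000031962, chr8:122847966-122867397, plus strand) encodes M-cadherin, which joins SCs to the fibre and myoblasts to each other. It was at 7.14 and 1.96 RPKM in WT (14 and 3 reads) and at 1.36 and 2.67 RPKM in KO (4 and 7 reads). WT replicate 1 was high, and the other 3 libraries had 3 to 7 reads, against a floor of 3. The log2 difference was -0.74 ± 0.60 (limma adjusted p = 0.722), and it was -0.0095 without WT replicate 1. Ncam1 (ENSMUSG00000039542, chr9:49502136-49798925, minus strand), an immunoglobulin-type adhesion protein that marks myoblasts and denervated or regenerating fibres, was at 5.94 and 2.94 RPKM in WT and at 2.55 and 2.86 RPKM in KO (31, 12, 20 and 20 reads). The KO values were both below the WT values, yet WT replicate 2 was within 0.1 RPKM of KO replicate 2. The log2 difference was -0.50 ± 0.44 (limma adjusted p = 0.730), and -0.091 without WT replicate 1.

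Megf10 and Megf11 encode related transmembrane proteins with many EGF-like repeats, and Megf10 acts in SC proliferation and in engulfment of dying cells. Megf11 (ENSMUSG00000036466, chr9:64385626-64709205, plus strand) showed the largest difference of the set. It was at 4.60 and 18.6 RPKM in WT (31 and 98 reads) and at 0.394 and 1.88 RPKM in KO (4 and 17 reads). Both KO libraries were below both WT libraries, while the libraries within each group differed by more than 4-fold. The mean was 11.6 ± 9.90 (SD, n = 2) in WT and 1.14 ± 1.05 in KO, 10.2-fold higher in WT. The log2 difference was -2.39 ± 0.71 (SE; 95% interval -4.13 to -0.64; limma adjusted p = 0.650). It was -1.48 without WT replicate 2 and -3.29 without WT replicate 1. In voom it was -3.35 ± 0.68, with an adjusted p of 0.0105, the only setting of 16 in which a member passed.

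Megf10 (ENSMUSG00000024593, chr18:57133090-57297467, plus strand) did not show this pattern. It was at 8.81 and 3.03 RPKM in WT and at 4.00 and 2.73 RPKM in KO (41, 11, 28 and 17 reads), and KO replicate 1 lay between the WT libraries. The log2 difference was -0.54 ± 0.53 (limma adjusted p = 0.741), and it turned to 0.10 without WT replicate 1.

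Megf10, Ncam1 and Cdh15 shared a shape. Each was at least 2 times higher in WT replicate 1 than in any other library (2.20, 2.02 and 2.68 times), a property of 7.52% of genes tested. The same library held 82 reads of Myog, the transcription factor of differentiating myoblasts, where the others held 3, 1 and 2. The part of differentiating cells in the levels of these 3 members was not tested. For WT replicate 2 the same property held for 5.69% of genes tested and for 1 member, Megf11, and for the KO libraries it held for 3.09% and 2.35% of genes and no member.

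Of the receptors, Cxcr4 (ENSMUSG00000045382, chr1:128588199-128592293, minus strand), the receptor of the chemokine Cxcl12, was at 44.0 and 74.0 RPKM in WT and at 63.4 and 42.5 RPKM in KO (48, 63, 104 and 62 reads). The highest value was in WT and the lowest in KO, with the other WT and KO libraries between them. Its log2 difference was -0.14 ± 0.49 (95% interval -1.35 to 1.07; limma adjusted p = 0.940), and its sign depended on the library left out. Calcr (ENSMUSG00000023964, chr6:3685680-3764714, minus strand), which marks quiescent SCs and is lost on activation, was read 2 times in WT replicate 1, 3 times in KO replicate 1 and in neither other library. A difference in Calcr was not detectable at this depth, where the floor of 3 reads was 0.846 to 1.63 RPKM for a gene of its length.

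The members were also compared for a sequence feature tied to eIF5A, which helps ribosomes past consecutive prolines. No member has 3 or more proline codons in a row in its GENCODE coding sequence, and the longest run was 2, where 25.8% of genes tested have a run of at least 3. Exons of Vcam1, Ncam1, Sdc3 and Des overlap antisense genes, which had at most 1 read in any library, and without stated strand the reads of such a pair cannot be told apart.

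Among partners of the members and in lists of cell type markers, 163 of 208 genes were tested. None passed an adjusted p of 0.05 in limma, while 17 of 163 passed an unadjusted p of 0.05 (12 lower, 5 higher), against 7.32% of all genes tested. In voom 2 of 167 passed an adjusted p of 0.05, against 0.65% of 10930 genes. Of the 7 tested relatives and engulfment partners of Megf10, none passed an unadjusted p, and 4 had both KO libraries below WT (20.3% of all genes tested), with a median log2 difference of -0.42.

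For the cadherin partners, 1 of 15 tested passed an unadjusted p, and the median log2 difference was -0.06. This was Cdon, a cell surface protein of the myoblast cadherin complex, at 18.3 and 6.05 RPKM in WT and at 2.72 and 3.21 RPKM in KO (log2 difference -1.56 ± 0.55, limma adjusted p = 0.672). Beta-catenin (Ctnnb1), which binds the cadherin tail, was at 67.1 and 94.8 RPKM in WT and at 130 and 135 RPKM in KO. Cdon thus had both KO libraries below WT and Ctnnb1 both above.

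For the partners of Vcam1 and Ncam1, 1 of 12 tested passed an unadjusted p, with a median of 0.15. This was Icam1, an immunoglobulin-type adhesion protein of activated endothelium, at 7.23 and 7.79 RPKM in WT and at 19.2 and 14.5 RPKM in KO (log2 difference 1.06 ± 0.38, limma adjusted p = 0.672). Itgb1, the beta subunit of the integrin that binds Vcam1, was at 48.0 and 87.9 RPKM in WT and at 158 and 119 RPKM in KO (log2 difference 1.07 ± 0.51, limma adjusted p = 0.676).

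Of 26 proteoglycans and syndecan partners tested, 1 was lower and 1 higher at an unadjusted p, with a median of -0.20. Fgfr4, a receptor for fibroblast growth factors in myoblasts, was at 30.9 and 9.59 RPKM in WT and at 1.87 and 3.15 RPKM in KO (log2 difference -2.41 ± 0.60, limma adjusted p = 0.604, voom adjusted p = 0.0315). Sdc2, the syndecan of fibroblasts, was at 3.76 and 2.41 RPKM in WT and at 6.88 and 7.37 RPKM in KO (log2 difference 1.01, named because it was the 1 higher gene). Sdc1, the remaining syndecan, was at 8.71 and 20.1 RPKM in WT and at 18.8 and 18.2 RPKM in KO, with overlap between the groups.

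Of 15 tested ligands and partners of Cxcr4 and Calcr, 1 passed an unadjusted p, with a median of -0.01. This was Ramp2, an accessory protein of calcitonin-type receptors, at 5.53 and 9.00 RPKM in WT and at 2.00 and 3.75 RPKM in KO (log2 difference -1.10 ± 0.44, limma adjusted p = 0.672). Of 10 intermediate filament genes and desmin partners tested, none passed, with a median of 0.08. Vim, the intermediate filament of fibroblasts and other mesenchymal cells, was at 223 and 345 RPKM in WT and at 407 and 382 RPKM in KO, on the opposite side of WT from Des. Among 20 other surface markers of muscle stem cells tested, Fgfr4 was the 1 that passed an unadjusted p. The median was -0.02, and the tetraspanin Cd81 was at 99.7 and 115 RPKM in WT and at 195 and 192 RPKM in KO.

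Markers of the cell types that a muscle culture can hold were read in the same libraries. The 8 myoblast transcription factors summed to 249 and 132 RPKM in WT and to 53.1 and 84.8 RPKM in KO, 3 of 5 tested were lower at an unadjusted p (median log2 difference -1.59), and 4 of 5 had both KO libraries below WT and 1 both above. The 19 myotube genes summed to 271 and 98.0 RPKM in WT and to 51.4 and 51.1 RPKM in KO, 5 of 12 tested were lower (median -1.40), and 8 of 12 had both KO libraries below WT and none both above. Over all genes tested, 7.32% passed an unadjusted p in either direction, 20.3% had both KO libraries below WT and 20.1% both above. Of these, Chrna1, a subunit of the muscle acetylcholine receptor, was at 17.4 and 16.0 RPKM in WT and at 2.26 and 4.52 RPKM in KO (log2 difference -2.06 ± 0.42, limma adjusted p = 0.506, voom adjusted p = 0.0264). Des, Megf11, Ncam1 and Sdc3 thus lay on the same side as the summed muscle markers, whose part in those differences was not tested.

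The 15 fibroblast markers summed to 717 and 486 RPKM in WT and to 1193 and 560 RPKM in KO, 1 of 13 tested was higher at an unadjusted p, and 5 of 13 had both KO libraries above WT and 1 both below. The 12 endothelial markers summed to 285 and 415 RPKM in WT and to 396 and 482 RPKM in KO, 1 of 11 was higher, and 6 of 11 had both KO libraries above WT and none both below, against 20.1% of genes tested with both above. The median log2 difference was 0.39 in each list. Both sums overlapped between the groups, but more single markers of these cells lay above WT than below it, as Vcam1 did. The highest genes of these lists included Dcn of fibroblasts (126 to 460 RPKM) and Cdh5 of endothelium (63.6 to 87.1 RPKM). Other markers were lower. In WT replicates 1 and 2 Postn of fibroblasts had 12 and 16 reads and Kdr of endothelium 18 and 19. Tcf21 of fibroblasts was at 0 in every library. The libraries labelled primary myoblast therefore held footprints of marker genes of both other cell types, beside which the levels of Vcam1, Cxcr4 and Sdc4 were read. The part of those cells in these levels and in the difference of Vcam1 was not tested. The 10 mural markers summed to 102 to 161 RPKM, lower in both KO libraries with none of 6 past an unadjusted p, 3 of 6 with both KO libraries below WT (20.3% of all genes tested) and 1 with both above (20.1%). The highest mural gene, Acta2, was at 98.2 and 73.5 RPKM in WT and at 46.7 and 67.1 RPKM in KO. The next, Pdgfrb, overlapped between the groups (37.5 and 34.9 in WT, 41.3 and 28.0 in KO). The mural sum lay on the same side as Des, which mural cells also make. The part of mural cells in the difference of Des was not tested. Of the mural markers, Tagln and Higd1b were at 0. The 12 immune markers summed to 54.4 to 81.4 RPKM, with 1 lower and 1 higher of 7 and Itgam and C1qa at 0. The 10 glial markers summed to 29.4 to 57.8 RPKM, with none of 8 past an unadjusted p.

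**Figure D3:**
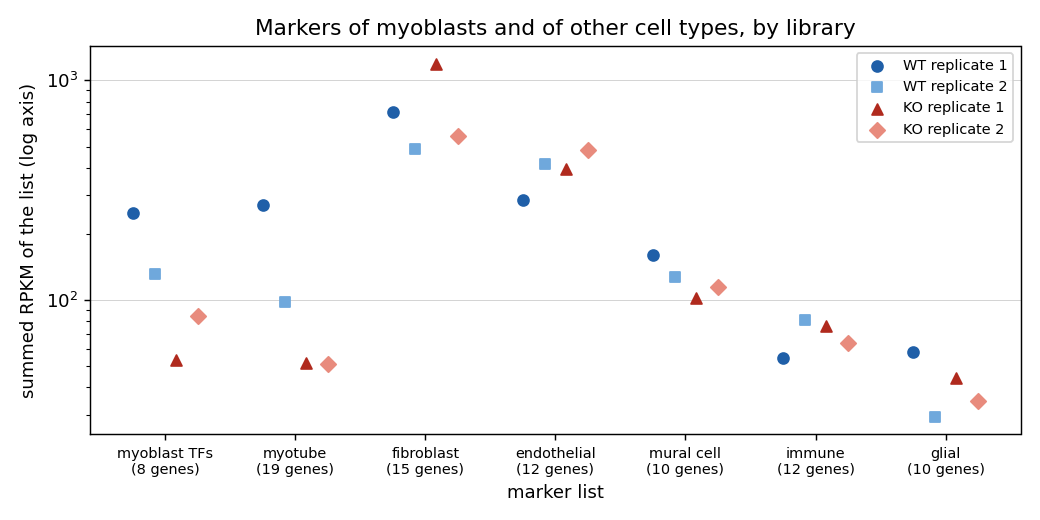
Summed RPKM of 7 marker lists in each library, on a log axis; blue symbols are WT replicates 1 and 2 and red symbols KO replicates 1 and 2. The sums of myoblast and myotube genes are lower in both KO libraries, whereas those of fibroblast and endothelial genes overlap between the groups.

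Other settings left 3 kinds of member. Des and Megf11 kept a negative difference and Vcam1 a positive one in each of the 16 other settings, among them scaling to total reads, which moved the median of all genes by 0.47. Cdh15 and Ncam1 kept a negative sign, with values nearest 0 of -0.0095 and -0.040. Megf10, Sdc3, Sdc4 and Cxcr4 took either sign.

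**Figure D4:**
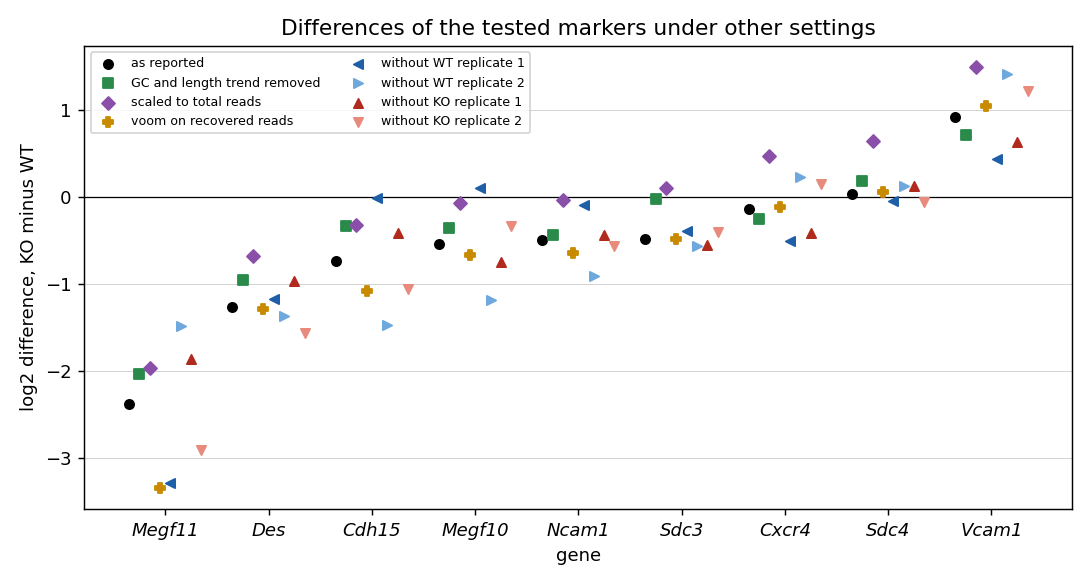
Log2 difference, KO minus WT, of the 9 members tested as reported (black circles), with the GC and length trend removed, scaled to total reads, in voom, and with each library left out. Symbols of Megf11 and Des lie below 0 and those of Vcam1 above 0 throughout, whereas those of Megf10, Sdc3, Sdc4 and Cxcr4 lie on both sides.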

How the data were processed

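The authors deposited RPKM values per gene, made from single-end Ribo-seq reads aligned with TopHat2 (mm10, the name of GRCm38 in the submitters' notes) and counted with HTSeq on Ensembl models. How multi-mapping reads and strand were treated is not given in the sources used here. Each RPKM times gene length, divided by the step that 1 read is worth in its library, gave whole reads for 100.0% of values (tolerance 0.01 read). The scaling followed each library's median-of-ratios size factor (0.713 to 1.37), which hides any change common to most genes.

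From these, limma 3.58.1 (R 4.3.3; lmFit, eBayes with trend) was fitted to log2(RPKM + 1), with group as the only term, over 11363 genes (mean RPKM 1 or more), two-sided with Benjamini-Hochberg adjustment and a threshold of 0.05. Differences on this scale understate those of low genes. Without molecular identifiers, the Wilson intervals and the floor of 3 reads cover only counting error.

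Members and the 14 partner and marker lists were chosen with earlier results of these data known. The rule for naming took, from each list, the 2 genes with the highest mean RPKM and the 2 with the largest difference among genes of at least 40 reads. Of those, the genes that bear on a member are given, with any past a test in voom (at least 10 reads). Coding sequences came from GENCODE M21, which held 99.8% of the gene IDs. Alternatives were another pseudocount, filter, scaling and variance model, voom, a GC correction, a replicate block and each library left out.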

Additional observations from a re-analysis of the deposited data

How the results depend on the processing

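With 2 libraries per group the smallest exact p is 0.333, and no setting but voom called a member. Of the member differences, those that took either sign were Megf10 (0.10 without WT replicate 1), Sdc3 (0.11 scaled to total reads), Sdc4 (0.64 scaled to total reads, -0.078 scaled to protein-coding reads, -0.050 without WT replicate 1 and -0.054 without KO replicate 2) and Cxcr4 (0.47 scaled to total reads, 0.23 without WT replicate 2 and 0.15 without KO replicate 2). Eif5a ranged from -0.12 (without WT replicate 1) to 0.76 with a library left out. The other 7 partner and marker genes whose difference is given kept their sign in every setting. Of 21 further genes that the naming rule took for their difference, 4 turned: Neb (0.10) and Lmnb1 (-0.090) without WT replicate 1, Cd68 (0.22) scaled to total reads and Foxd3 (0.017) with the GC trend removed. Genes given by level alone were left out. The cause was not tested.

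Megf11 passed in voom (-3.35), which gave 1 member and 2 list genes past the adjusted p. Over libraries left out, member differences ranged from -1.18 to 0.10 (Megf10), -3.29 to -1.48 (Megf11), -1.47 to -0.0095 (Cdh15), 0.43 to 1.42 (Vcam1), -0.91 to -0.091 (Ncam1), -0.57 to -0.39 (Sdc3), -0.054 to 0.12 (Sdc4), -0.50 to 0.23 (Cxcr4) and -1.57 to -0.97 (Des). Members over 2-fold lower at an unadjusted p numbered 1 in place of 2 when scaled to total reads or with the GC trend removed (with or without the block), where Des was at -0.68 and -0.96, and 0 to 1 with a library left out, 0 without WT replicate 2 or KO replicate 1. Members over 2-fold higher numbered 1 (Vcam1) in total-read scaling and in voom. Members with both KO libraries below WT numbered 2 in total-read scaling, where 7.87% of all genes did. Those with both above numbered 2 (Vcam1 and Sdc4) in total-read scaling (41.4% of all genes), quantile normalization (22.8%) and with the GC trend removed (21.3%). With a library left out, 2 libraries face 1 and separation is more frequent by construction: 5 to 6 members were then below and 1 to 2 above, beside 30.4% to 39.4% and 31.7% to 35.9% of all genes. The median of the members was -0.040 in total-read scaling, where all genes moved by 0.47. List genes past 2-fold and an unadjusted p numbered 17 as reported, 10 at a mean RPKM of at least 5, 34 in total-read scaling, 26 in voom and 2 to 23 with a library left out (5 without WT replicate 1, 2 without KO replicate 1 and 6 without KO replicate 2).

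Of all genes past 2-fold and an unadjusted p, 61.7% were lower in KO as reported, 9.62% in total-read scaling, 73.3% in protein-coding scaling, 50.0% after quantile normalization and 49.1% with the GC trend removed. Calls over all genes at an adjusted p numbered 12 as reported, 71 in voom, 21 with a robust prior, 13 in protein-coding scaling and 0 with a pseudocount of 0.1, no filter or no variance trend. The replicate numbers pair nothing in the labels, and deviations of same-numbered libraries correlated at 0.06 over 11363 genes. With the replicate block 0 of 11363 genes passed the adjusted p, against 12 without it, and no member passed in either. The share of reads on the members, -0.063 percentage points (KO minus WT) of protein-coding reads, was 0.013 of all gene-assigned reads, a denominator added after the data were seen.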
